A study of Homo sapiens with 24 samples.

Results

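Transcripts of 10 genes of matrix turnover were followed in HK-2 cells, an immortalised line of human kidney proximal tubule epithelium: the matrix metalloproteinases MMP1, MMP2, MMP3, MMP7, MMP10, MMP13 and MMP14 and the tissue inhibitors of metalloproteinases TIMP1, TIMP2 and TIMP3. The genes were chosen by symbol, with earlier results of these data known. All 10 were found by their Ensembl ID among the 65180 gene IDs of the count table. The table holds 24 poly(A) RNA-seq libraries in 6 groups, all from cells deprived of serum overnight and then incubated for 24 h. Normoxic cells received solvent only (5 libraries), BAY 60-2770 (3 libraries), TGF-β1 at 2 ng/mL (5 libraries) or TGF-β1 with BAY 60-2770 (5 libraries). Hypoxic cells, kept at 0.3% oxygen, received solvent only (3 libraries) or BAY 60-2770 (3 libraries). The solvents were DMSO, dilute HCl and bovine serum albumin. BAY 60-2770, called BAY below, activates soluble guanylate cyclase and so raises cyclic GMP. The labels give its concentration as 1 mM, which is far above doses usual in culture, so the dose behind every BAY value is doubtful. HK-2 is 1 cell line, and the labels call the replicates biological without saying what separated them, so p-values measure only the spread between these cultures.

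Metalloproteinases of this family are secreted or membrane-bound zinc enzymes made as inactive precursors, and together they cut nearly all components of the extracellular matrix. The collagenases MMP1 and MMP13 cleave fibrillar collagen, the stromelysins MMP3 and MMP10 cut proteoglycans, laminin and fibronectin and activate other precursors, the gelatinase MMP2 degrades denatured and basement membrane collagen, the matrilysin MMP7 also sheds cell surface proteins, and MMP14 is anchored in the membrane and activates the MMP2 precursor with the help of TIMP2. TIMPs bind the active enzymes and block them. In kidney epithelium MMP7 is known as a marker of tubular injury and fibrosis, and TGF-β1 is a main driver of matrix accumulation. Transcript counts do not show enzyme activity.

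Total counts per library ranged from 78862528 to 105571250, and levels are given as CPM (counts scaled to a common library total with the TMM factors of all 24 libraries). Of 8 general epithelial markers 6 or 7 reached a mean of 1 CPM in each group, but of 10 proximal tubule markers only 3 or 4 did, and LRP2, HNF4A and SLC22A6, defining genes of that segment, were below 1 CPM in every library. PTPRC, the general leukocyte marker, stayed below 0.06 CPM, and CD163, CD3E and PDPN had no counts. The 3 normoxic groups with 5 libraries each fell into 2 subsets along the first component of the spread within a group, which held 60.3% to 64.0% of it. Subset 1 is solvent replicates 1, 2 and 5 and replicates 1 and 2 of both TGF-β1 groups, and subset 2 the rest. The subsets were defined from these data, so values are given within them where they matter.

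On GRCh38, by GENCODE 29, 5 of the 7 metalloproteinase genes lie in 1 cluster on chromosome 11, all on the minus strand. These are MMP7 (ENSG00000137673, chr11:102520508-102530753), MMP10 (ENSG00000166670, chr11:102770503-102780628), MMP1 (ENSG00000196611, chr11:102789920-102798160), MMP3 (ENSG00000149968, chr11:102835801-102843803) and MMP13 (ENSG00000137745, chr11:102942995-102955734). MMP2 (ENSG00000087245) lies at chr16:55389700-55506691 and MMP14 (ENSG00000157227) at chr14:22836557-22849027, both on the plus strand. TIMP1 (ENSG00000102265) lies at chrX:47582313-47586789 on the plus strand, TIMP2 (ENSG00000035862) at chr17:78852977-78925387 on the minus strand and TIMP3 (ENSG00000100234) at chr22:32801701-32863043 on the plus strand. All are protein-coding genes.

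Sequence from RefSeq (GRCh38.p14) was at hand for the promoters of 5 of the 10 genes, MMP7, MMP10, MMP14, TIMP1 and TIMP3. Those of MMP10, MMP7 and MMP14 are shown because these genes had 3 different responses to BAY: MMP10 rose with BAY in cells given TGF-β1, MMP7 fell with BAY in each setting, and MMP14 went in opposite directions in normoxia and hypoxia. Each runs 5′ to 3′ on the gene's strand from 250 bases before the RefSeq start to the base before the first annotated exon. Capitals mark matches, on either strand, to 5 motifs. These are the AP-1 site, spelled TGAGTCA, the cyclic AMP response element (CRE) in its full form, spelled TGACGTCA, the core of the hypoxia response element, spelled ACGTG and read as CACGT where it lies on the other strand, the TATA box, spelled TATAAA, and the GC box, spelled GGGCGG.
MMP10 (chr11:102780629-102780878, minus strand): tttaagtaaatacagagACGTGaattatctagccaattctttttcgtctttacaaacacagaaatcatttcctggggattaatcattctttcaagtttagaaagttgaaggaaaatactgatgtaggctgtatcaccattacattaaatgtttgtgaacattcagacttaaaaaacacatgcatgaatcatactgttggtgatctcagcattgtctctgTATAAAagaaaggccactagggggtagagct
MMP7 (chr11:102530754-102530997, minus strand): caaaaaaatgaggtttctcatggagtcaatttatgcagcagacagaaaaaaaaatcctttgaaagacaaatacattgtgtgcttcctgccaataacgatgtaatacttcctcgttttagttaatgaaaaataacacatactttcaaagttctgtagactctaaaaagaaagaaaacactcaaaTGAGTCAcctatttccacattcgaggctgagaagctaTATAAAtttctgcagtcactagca
MMP14 (chr14:22836335-22836556, plus strand): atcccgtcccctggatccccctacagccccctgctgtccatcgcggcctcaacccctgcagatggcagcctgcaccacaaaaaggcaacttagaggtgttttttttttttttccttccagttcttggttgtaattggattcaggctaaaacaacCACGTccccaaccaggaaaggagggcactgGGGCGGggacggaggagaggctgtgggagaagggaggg
The MMP7 promoter holds an AP-1 match 67 to 61 bases before the start and a TATA match 30 to 25 bases before it. The MMP10 promoter holds a TATA match 31 to 26 bases before the start and the hypoxia core 233 to 229 bases before it. In the MMP14 promoter the hypoxia core lies 96 to 92 bases and a GC box 66 to 61 bases before the start, with no TATA match. No 2 matches overlapped in these promoters. Among all 35116 promoters of the table, within 250 bases before the start, 4.20% held the AP-1 letters, 1.65% CRE, 18.5% the hypoxia core, 10.7% TATA and 42.6% the GC box. These are matches of letters only, and binding was not measured.

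MMP3 and MMP10 are close paralogs, and they alone among the 10 genes shared any stretch of 31 bases in their transcripts (125 such stretches, of 2047 in MMP3 and 1756 in MMP10). The longest identical run was 96 bases of coding sequence, at chr11:102842434-102842529 in MMP3 and chr11:102779216-102779311 in MMP10. It is shown because reads that lie wholly within it match both genes.
MMP3 and MMP10, shared run: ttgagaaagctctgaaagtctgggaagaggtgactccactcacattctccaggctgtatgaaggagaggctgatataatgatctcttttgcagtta
The counts are Salmon estimates, which divide such reads between the genes, so the few MMP3 counts given below are uncertain beside the far larger MMP10 counts.

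TGF-β1 raised all 8 members that had enough counts in the groups compared. MMP3 and TIMP3 had very few counts and are described apart. In normoxia with solvent, MMP1, the main interstitial collagenase, was measured at 4.69, 4.26, 3.13, 3.28 and 4.77 CPM in the 5 libraries. With TGF-β1 it reached 722, 766, 603, 626 and 629.7 CPM, so that no library of one group came near the other. In such bulk RNA more expressing cells and more RNA per cell cannot be told apart. MMP1 rose 166-fold (log2 fold change 7.38, SE 0.128, adjusted p = 6.73e-18 by edgeR's quasi-likelihood test). MMP13, the collagenase best known from cartilage, stood at 2.00, 2.11, 1.67, 1.57 and 1.95 CPM with solvent. With TGF-β1 its libraries split into 188 and 192 CPM in subset 1 and 335, 341 and 357 CPM in subset 2. Both subsets lay far above solvent, and MMP13 rose 152-fold (log2 7.25, SE 0.247, edgeR adjusted p = 2.60e-13), by 6.60 on the log2 scale in subset 1 alone and 7.73 in subset 2 alone. MMP10, a stromelysin, stood at 0.330, 0.286, 0.378, 0.386 and 0.352 CPM with solvent. It reached 53.3, 58.0, 38.6, 40.2 and 41.5 CPM with TGF-β1 and rose 133-fold (log2 7.06, SE 0.166, edgeR adjusted p = 4.85e-16). Its subsets were ordered the other way from those of MMP13, with subset 1 higher.

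**Figure D1:**
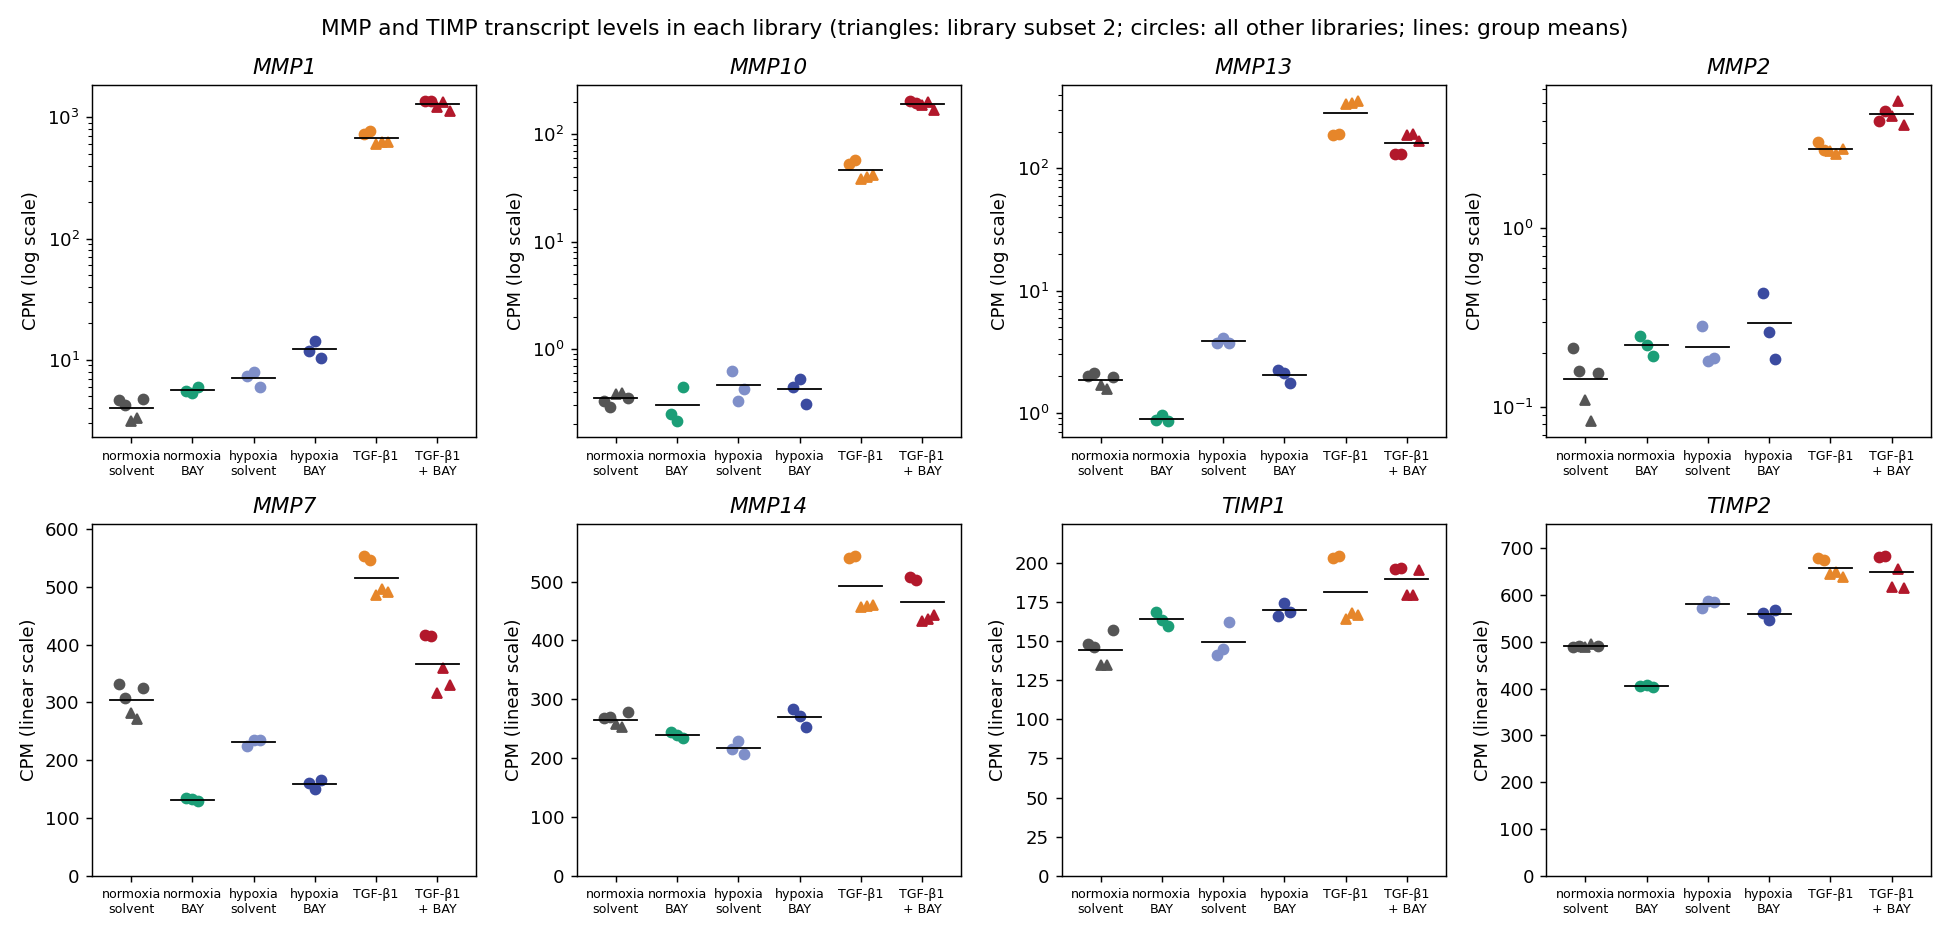
Level of 8 members in each of the 24 libraries by group, in CPM, on a log scale for MMP1, MMP10, MMP13 and MMP2 and a linear scale from 0 for MMP7, MMP14, TIMP1 and TIMP2. Black lines are group means, triangles are subset 2 and circles all other libraries. The first 4 genes step up by log2 4.25 to 7.38 with TGF-β1, while the last 4 vary within a much narrower range.

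The other metalloproteinases changed less. MMP2, the gelatinase, was low in solvent controls at 0.213, 0.159, 0.110, 0.0834 and 0.154 CPM. It rose to 3.02, 2.74, 2.72, 2.59 and 2.77 CPM with TGF-β1, without overlap (log2 4.25, SE 0.176, edgeR adjusted p = 2.34e-13), and stayed a weakly expressed gene. MMP7 was already abundant, with 332, 307, 282, 271 and 326 CPM in solvent controls. With TGF-β1 it rose to 554, 547, 487, 496 and 490.5 CPM, all above the controls (log2 0.76, SE 0.0762, edgeR adjusted p = 8.24e-08). MMP14, the membrane-bound activator of MMP2, rose from 265 ± 9.51 to 492 ± 45.9 CPM (SD, n = 5 each; log2 0.89, SE 0.0587, edgeR adjusted p = 1.95e-10), and the groups did not overlap.

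MMP3 had 1 count in all 5 solvent libraries together and 4 to 10 counts in each TGF-β1 library, 38 in all. It passed the filter on low counts only through the cells with both TGF-β1 and BAY. With solvent or TGF-β1 alone every library lay below the cutoff. The ratio of its pooled levels was 40.3 (95% exact counting interval 6.82 to 1635, covering counting error only). It was called higher by edgeR, but that call is not used, because MMP3 entered the fit through another group. MMP10 rose to a mean of 46.3 CPM in the same libraries, where MMP3 had 0.0827 CPM, and the part that shared reads play in the MMP3 counts was not tested.

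The inhibitors moved far less than the collagenases. TIMP1 had a mean of 144 ± 9.64 CPM in solvent controls and went to 181 ± 20.6 CPM (SD, 5 libraries each) after TGF-β1. The lowest TGF-β1 library, at 164 CPM, lay above the highest solvent library, at 157 CPM, and TIMP1 rose by log2 0.33 (SE 0.0638, edgeR adjusted p = 0.000192). TIMP2 was steady between the solvent replicates, at 489, 491, 489, 496 and 490.4 CPM. With TGF-β1 it rose to 680.3, 674, 646, 649.8 and 639.8 CPM without overlap (log2 0.42, SE 0.0311, edgeR adjusted p = 9.47e-10). TIMP3, which binds to the matrix itself, had 15 counts in all 24 libraries together, spread over 8 of them, and was not tested. In solvent controls it had 0 counts, which allows up to 0.00619 CPM over the group.

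Without MMP3, whose place was fixed by the filter, 8 of the 8 members tested were called higher with TGF-β1 and 0 lower, where 29.5% of all genes were called higher and 32.5% lower by the same test. The median log2 fold change of the 8 was 2.57, and that of all 21639 genes tested was -0.04. The members were chosen with earlier results of these data known, so these counts describe them and test nothing about the family. With libraries scaled by total counts alone the median of all genes was -0.17, and the 8 calls stood. In the same libraries the summed level of 8 fibroblast markers was 286 to 299.6 CPM with TGF-β1 and 109.8 to 134 CPM with solvent. Only 3 of the 8 reached 1 CPM in either group, and of the 5 that could be tested 2 were called higher and 2 lower. COL1A1, itself a TGF-β1 target, went from 36.6 to 223 CPM, while PDPN had no counts, and COL3A1 and PDGFRA had 0.042 and 0.044 CPM with TGF-β1. The summed level of the 10 proximal tubule markers was 81.6 to 107 CPM with TGF-β1 and 199.6 to 234 CPM with solvent. Of the 8 proximal tubule markers tested, 2 were called higher and 6 lower. Of the 7 general epithelial markers tested, 2 were called higher and 4 lower. The part of these shifts in the rise of the metalloproteinases was not tested.

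BAY, added together with TGF-β1, moved the induced metalloproteinases in opposite directions. MMP10 rose from a mean of 46.3 to 204, 196, 185, 198 and 169 CPM, with every library above every TGF-β1 library. That was a 4.11-fold rise (log2 2.04, SE 0.107, edgeR adjusted p = 3.10e-10), the largest of any member in this comparison. MMP1 rose to 1363, 1365, 1214, 1335 and 1132 CPM, again without overlap (log2 0.94, SE 0.0944, edgeR adjusted p = 7.24e-07). MMP2 rose to 3.99, 4.55, 4.23, 5.15 and 3.77 CPM, and its lowest library lay above the highest with TGF-β1 alone (log2 0.65, SE 0.142, edgeR adjusted p = 0.00179).

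MMP13 and MMP7 fell. MMP13 was measured at 130.1 and 132 CPM in subset 1 and 189, 190.1 and 168 CPM in subset 2 with both agents. Over all libraries the ranges met, since the TGF-β1 group began at 188 CPM, but within each subset every library with BAY lay below every library without it. MMP13 fell by 0.81 on the log2 scale (SE 0.177, edgeR adjusted p = 0.00250), with a log2 fold change of -0.55 within subset 1 and -0.92 within subset 2. MMP7 was measured at 416, 414, 316, 359.5 and 329.6 CPM, all below the TGF-β1 group, and fell by 0.49 on the log2 scale (SE 0.0759, edgeR adjusted p = 8.14e-05).

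MMP14, TIMP1, TIMP2 and MMP3 were not called. Their log2 fold changes were -0.08 (SE 0.0582), 0.06 (SE 0.0637), -0.02 (SE 0.031) and 0.90 (SE 0.405). With a term for the library subset, an analysis added after the data were seen, MMP14 was called lower by the same small size (log2 -0.08, edgeR adjusted p = 0.0166), as it was in subset 1 alone (log2 -0.12, adjusted p = 0.00667) and in subset 2 alone (log2 -0.07, adjusted p = 0.0452). With the replicate number as a block in a fit of these 2 groups, also added after the data were seen, MMP14 was called lower too (log2 -0.09, edgeR adjusted p = 0.00333). In subset 2 alone TIMP1 was called higher (log2 0.15, edgeR adjusted p = 0.00329), and in subset 1 alone it had a log2 fold change of -0.07. The summed level of the 10 proximal tubule markers was 59.1 to 80.1 CPM with BAY and 81.6 to 107 CPM without. Of the 8 proximal tubule markers tested, 0 were called higher and 2 lower. The part of this summed level in these changes was not tested. MMP3 passed the filter on low counts only through the cells with both agents. Without it, 3 of the 8 members tested were called higher and 2 lower, where 13.9% of all genes were called higher and 15.6% lower.

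Compared directly with solvent controls, cells with both agents had 8 of 8 members called higher, where 30.6% of all genes were called higher and 32.3% lower. MMP3 was left aside because it passed the filter only through the group with both agents. The largest fold changes were those of MMP10 (log2 9.09, SE 0.169, edgeR adjusted p = 1.44e-17), MMP1 (8.31, SE 0.133, adjusted p = 1.27e-18) and MMP13 (6.44, SE 0.241, adjusted p = 6.20e-13). MMP2 followed at 4.90, MMP14 at 0.81, TIMP2 at 0.40 and TIMP1 at 0.39. MMP7 was the smallest at 0.27 (SE 0.0758, edgeR adjusted p = 0.00435), and it was not called when libraries were scaled by total counts alone (log2 0.12, adjusted p = 0.0875). MMP3 had 72 counts in this group against 1 in the controls, a ratio of 76.4 (95% exact counting interval 13.3 to 3058).

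**Figure D2:**
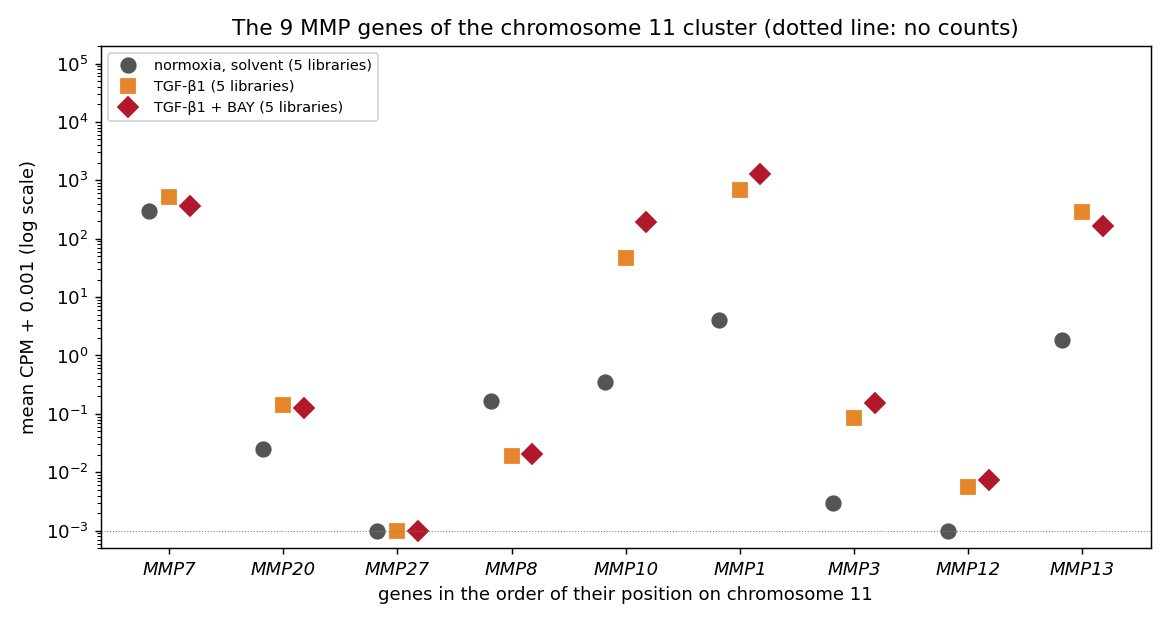
Mean level of the 9 MMP genes of the chromosome 11 cluster in the order of their position, for normoxic solvent controls, TGF-β1 and TGF-β1 with BAY (5 libraries each), as CPM plus 0.001 on a log scale. MMP10, MMP1 and MMP13 step up by more than 7 on the log2 scale with TGF-β1, MMP8 lies lower with TGF-β1 than with solvent, and MMP27 has no counts.

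The chromosome 11 cluster spans 435.2 kb with 9 MMP genes, and the rise with TGF-β1 was uneven along it. MMP7, at one end, was abundant with solvent already. MMP8, the neutrophil collagenase, which lies between MMP7 and MMP10, was measured at 0.164 CPM with solvent and 0.0179 CPM with TGF-β1. MMP20, known from tooth enamel, was measured at 0.0245 and 0.141 CPM. Both passed the filter on low counts only through the groups where they are high, so these levels are a description. MMP27 had no counts, and MMP12, the macrophage elastase, which lies between MMP3 and MMP13, had a mean of 0 CPM with solvent and 0.00462 CPM with TGF-β1. WTAPP1, a pseudogene on the opposite strand that overlaps MMP10, MMP1 and MMP3, stayed at or below 0.00677 CPM in every group mean. Whether strand was used in the counting is not given in the sources used here, and without it reads of overlapping genes cannot be told apart.

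Without TGF-β1, BAY in normoxia lowered MMP7 and MMP13 and raised MMP1, with no call for MMP10 and MMP2. There MMP7 was measured at 135, 132 and 129 CPM with BAY, well under the lowest solvent library at 271 CPM, and fell by 1.18 on the log2 scale (SE 0.0555, edgeR adjusted p = 2.32e-10). MMP13 was measured at 0.876, 0.955 and 0.853 CPM, also below every solvent library, and fell by 1.03 (SE 0.123, edgeR adjusted p = 5.80e-06). MMP1 was measured at 5.48, 5.37 and 5.94 CPM, all above the highest solvent library at 4.77 CPM, and rose by 0.50 on the log2 scale (SE 0.143, edgeR adjusted p = 0.0106). The MMP1 call was lost without BAY replicate 3 (log2 0.44, adjusted p = 0.0648) and against the subset 1 controls alone (log2 0.30, adjusted p = 0.0526).

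The inhibitors went in opposite directions with BAY in normoxia. TIMP1 rose from 144 ± 9.64 CPM (SD, n = 5) to 169, 163 and 159 CPM, with no overlap (log2 0.20, SE 0.0493, edgeR adjusted p = 0.00337). TIMP2 was measured at 406, 408 and 404 CPM, below every solvent library, and fell by 0.26 on the log2 scale (SE 0.0301, edgeR adjusted p = 5.41e-06). MMP14 was measured at 244, 239 and 233 CPM against 254 to 278 CPM with solvent, and fell by 0.13 (SE 0.0416, edgeR adjusted p = 0.0168). That call was lost without BAY replicate 2 (adjusted p = 0.0554) or BAY replicate 3 (adjusted p = 0.0804), with scaling by total counts (adjusted p = 0.0516), with all 24 libraries in 1 fit (adjusted p = 0.0682) and against the subset 2 controls alone (log2 -0.10, adjusted p = 0.196). MMP10 (log2 -0.17, SE 0.281) and MMP2 (log2 0.64, SE 0.334), each below 0.5 CPM, were not called, although MMP2 was called higher against the subset 2 controls alone (log2 1.19, edgeR adjusted p = 0.0471). The summed level of the 8 epithelial markers was 1260 to 1324 CPM with BAY and 1682 to 2014 CPM with solvent, that of the 10 proximal tubule markers was 307 to 317 CPM against 199.6 to 234 CPM, and that of the 8 fibroblast markers was 163 to 169.7 CPM against 109.8 to 134 CPM. Within each set the markers went both ways: 2 of the 7 epithelial markers tested were called higher and 5 lower. For the 8 proximal tubule markers tested the calls were 3 higher and 1 lower, and for the 5 fibroblast markers 2 higher and 1 lower. The part of these shifts in the changes of the members was not tested. Of the 8 members tested, 2 were called higher and 4 lower, where 20.6% of all genes were called higher and 23.3% lower.

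Hypoxia raised both collagenases and lowered MMP7 and MMP14. MMP13 was measured at 3.74, 4.10 and 3.69 CPM in hypoxia with solvent, all above the normoxic maximum of 2.11 CPM, and rose by 1.05 on the log2 scale (SE 0.113, edgeR adjusted p = 7.27e-07). MMP1 was measured at 7.37, 7.91 and 5.92 CPM, above every normoxic solvent library (log2 0.82, SE 0.142, edgeR adjusted p = 0.000127). MMP7 was measured at 224, 235 and 234 CPM, below every normoxic solvent library, and fell by 0.39 (SE 0.0536, edgeR adjusted p = 1.11e-05). MMP14 was measured at 215, 228 and 206 CPM and fell by 0.29 (SE 0.0419, edgeR adjusted p = 1.68e-05). TIMP2 rose to 572, 587 and 585 CPM, above all normoxic solvent libraries (log2 0.25, SE 0.0297, edgeR adjusted p = 2.73e-06). TIMP1 (log2 0.05, SE 0.0496), MMP10 (log2 0.40, SE 0.275) and MMP2 (log2 0.60, SE 0.337) were not called, although against the subset 2 controls alone TIMP1 (log2 0.16, adjusted p = 0.0202) and MMP2 (log2 1.18, adjusted p = 0.0319) were called higher by edgeR. Of the 8 members tested, 3 were called higher and 2 lower, where 29.2% of all genes were called higher and 31.6% lower, so the share of members called was close to that of all genes. The summed level of 8 leukocyte markers, most of it CD68 and CSF1R, was 252 to 267 CPM in hypoxia and 130.1 to 139.9 CPM in normoxia, with CD163 and CD3E at 0.

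In hypoxic cells BAY again raised MMP1 and lowered MMP13 and MMP7. MMP1 reached 11.8, 14.3 and 10.3 CPM, all above hypoxia with solvent (log2 0.78, SE 0.159, edgeR adjusted p = 0.00118). MMP13 was measured at 2.22, 2.10 and 1.74 CPM, below every hypoxic solvent library, and fell by 0.93 (SE 0.130, edgeR adjusted p = 3.66e-05). MMP7 was measured at 161, 150.2 and 165 CPM, likewise without overlap, and fell by 0.55 (SE 0.0596, edgeR adjusted p = 3.07e-06). MMP14 rose to 284, 271 and 253 CPM, above every hypoxic solvent library (log2 0.31, SE 0.0465, edgeR adjusted p = 7.07e-05). TIMP1 was measured at 166, 174 and 168 CPM against 141, 145 and 162 CPM and was called higher (log2 0.18, SE 0.0555, edgeR adjusted p = 0.0182). The TIMP1 call was lost without BAY replicate 2 (adjusted p = 0.0693), without solvent replicate 1 (0.0902) or 2 (0.0796) and with all 24 libraries in 1 fit (0.0758). MMP10 (log2 -0.10, SE 0.310), MMP2 (log2 0.43, SE 0.369) and TIMP2 (log2 -0.06, SE 0.0334) were not called. TIMP2 was called lower by DESeq2 (log2 -0.05, adjusted p = 0.0376) and with scaling by total counts (log2 -0.11, edgeR adjusted p = 0.0208). The summed level of the 8 fibroblast markers was 223 to 242 CPM with BAY and 124 to 131.5 CPM without, with PDPN at 0. Of the 5 markers among them that could be tested, 2 were called higher and 1 lower, with a median log2 fold change of -0.05. The summed level of the 8 epithelial markers was 1483 to 1553 CPM with BAY and 1806 to 1902 CPM without. Of the 7 epithelial markers tested, 0 were called higher and 5 lower. The part of these summed levels in the changes of the members was not tested. Of the 8 members tested, 3 were called higher and 2 lower, where 16.5% of all genes were called higher and 21.4% lower.

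Hypoxia with BAY was also set against normoxic solvent controls. MMP1 rose by log2 1.59 (SE 0.140, edgeR adjusted p = 5.90e-08) and MMP7 fell by 0.94 on the log2 scale (SE 0.0549, edgeR adjusted p = 3.37e-10). TIMP1 (log2 0.23, edgeR adjusted p = 0.000606) and TIMP2 (log2 0.18, edgeR adjusted p = 4.44e-05) rose, though TIMP2 was not called with scaling by total counts (log2 0.06, adjusted p = 0.12). MMP2 was called higher at 0.433, 0.264 and 0.186 CPM (log2 1.03, SE 0.331, edgeR adjusted p = 0.0119). That call rested on the first of these libraries, since it was lost without replicate 1 (log2 0.65, adjusted p = 0.134), and also against the subset 1 controls alone (log2 0.78, adjusted p = 0.0564). MMP13 (log2 0.12, SE 0.117), MMP14 (log2 0.02, SE 0.0415) and MMP10 (log2 0.30, SE 0.278) were not called. MMP13 was called higher against the subset 2 controls alone (log2 0.34, edgeR adjusted p = 0.0428), and MMP14 was called lower with scaling by total counts (log2 -0.11, edgeR adjusted p = 0.0272). Of the 8 members tested, 4 were called higher and 1 lower, where 32.8% of all genes were called higher and 35.4% lower.

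**Figure D3:**
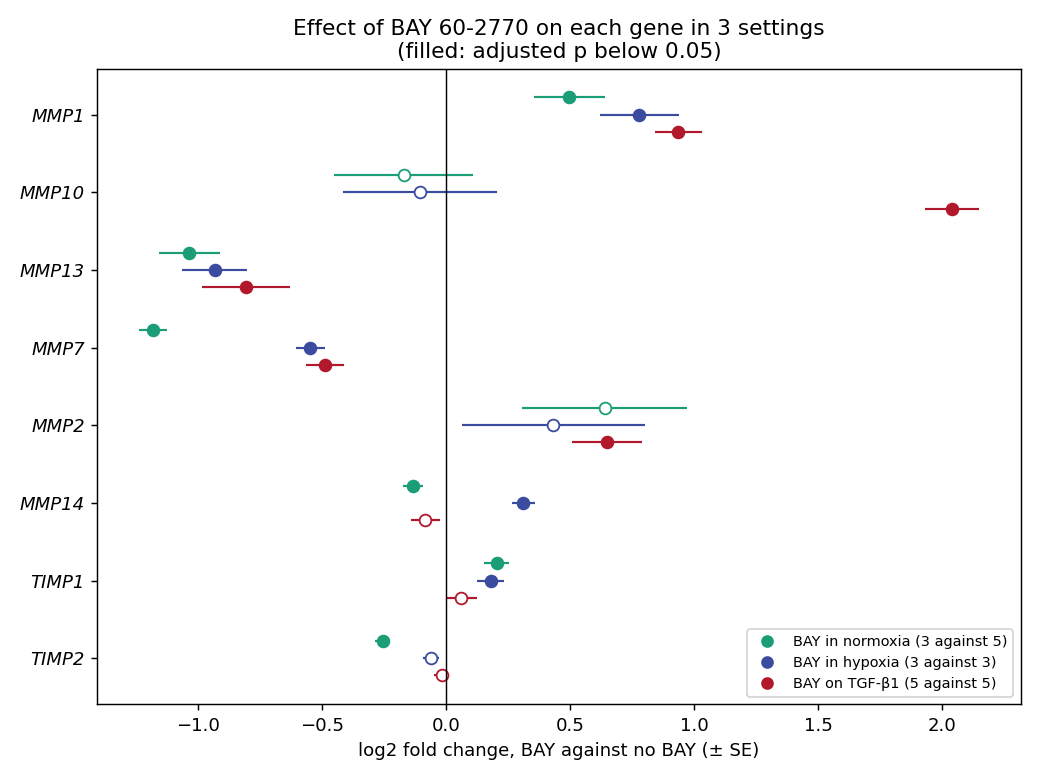
Log2 fold change with BAY (± SE) for 8 members in normoxia (3 libraries against 5), hypoxia (3 against 3) and with TGF-β1 (5 against 5). Filled points have an adjusted p below 0.05. MMP1 lies to the right of 0 and MMP13 and MMP7 to the left in all 3 settings, MMP10 lies at 2.04 with TGF-β1 only, and MMP14 lies on opposite sides in normoxia and hypoxia.

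Whether the BAY effect depended on the setting was tested by interaction terms. The difference between the BAY effect with TGF-β1 and that without was called for MMP10 (log2 2.21, SE 0.338, edgeR adjusted p = 0.000137), for MMP7 (0.71, SE 0.117, adjusted p = 0.000230) and for TIMP2 (0.25, SE 0.0475, adjusted p = 0.000688). MMP10 rose with BAY in cells given TGF-β1 from a log2 fold change of -0.17 without it, MMP7 fell less with TGF-β1 (-0.49 against -1.18), and TIMP2 went from -0.26 without TGF-β1 to -0.02 with it. For MMP1 the difference was 0.46 (SE 0.162) and missed the threshold (edgeR adjusted p = 0.0551). It was called by DESeq2 (0.45, adjusted p = 0.0243) and by edgeR with a replicate block over all groups (0.49, adjusted p = 0.0335). That block also joins solvent and TGF-β1 replicates 5, whose deviations from their group means correlated negatively (r = -0.335). With only the subset 1 libraries of the groups of 5 it was called (0.53, edgeR adjusted p = 5.23e-05). With only those of subset 2 it was not (0.18, edgeR adjusted p = 0.313). By edgeR it was also called without solvent replicate 3 (0.54, adjusted p = 0.0158) or 4 (0.52, adjusted p = 0.0252). The same held without TGF-β1 replicate 1 (0.49, edgeR adjusted p = 0.0494) or 2 (0.51, adjusted p = 0.0297), or replicate 5 with both agents (0.51, adjusted p = 0.0325). For MMP13 it was 0.25 (SE 0.395), and for MMP3, MMP2, MMP14 and TIMP1 it was 2.26 (SE 1.49), 0.03 (SE 0.296), 0.07 (SE 0.0891) and -0.12 (SE 0.0972), none of them called. With only the subset 1 libraries of the groups of 5, MMP13 was called (0.59, edgeR adjusted p = 4.95e-05). TIMP1 was called there in the other direction (-0.23, edgeR adjusted p = 0.00186). The normoxic libraries with BAY alone were assigned to no subset and were all kept in these fits. These differences are therefore not held within a subset. Of the 9 members tested, 3 were called with a positive difference and 0 with a negative one, where 13.7% and 7.08% of all genes were. MMP3 was among the 9 only through the cells with both agents.

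The difference between the BAY effect in hypoxia and that in normoxia was called for MMP7 (log2 0.63, SE 0.0800, edgeR adjusted p = 7.60e-05), which fell less in hypoxia. It was called for MMP14 (0.44, SE 0.0624, adjusted p = 0.000202), which fell with BAY in normoxia and rose in hypoxia. It was also called for TIMP2 (0.19, SE 0.0449, adjusted p = 0.00774), but not without the filter on low counts (0.19, adjusted p = 0.0612) or with scaling by total counts (0.11, adjusted p = 0.128). For MMP1 the difference was 0.28 (SE 0.215, edgeR adjusted p = 0.417), and it was called against the subset 1 controls alone (0.49, adjusted p = 0.0432). MMP13 (0.10, SE 0.175), MMP10 (0.07, SE 0.417), MMP2 (-0.21, SE 0.496) and TIMP1 (-0.02, SE 0.0744) were not called. Of the 8 members tested, 3 were called with a positive difference and 0 with a negative one, where 8.83% and 7.92% of all genes were. The comparisons share control libraries, so their values for a gene are not independent of each other.

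The order of the 6 groups differed between genes. MMP1 ran from normoxia with solvent (4.03 CPM) over normoxia with BAY (5.60), hypoxia with solvent (7.07), hypoxia with BAY (12.2) and TGF-β1 (669) to TGF-β1 with BAY (1282 CPM), and only normoxia with BAY and hypoxia with solvent overlapped among neighbours. MMP7 began with normoxia with BAY (132 CPM), followed by hypoxia with BAY (159), hypoxia with solvent (231), normoxia with solvent (303), TGF-β1 with BAY (367) and TGF-β1 (515 CPM). Only the ranges of normoxia with solvent and TGF-β1 with BAY overlapped in that order. MMP13 also began with normoxia with BAY (0.895 CPM), and there normoxia with solvent (1.86) and hypoxia with BAY (2.02) overlapped, as did the TGF-β1 groups (162 with BAY and 283 without). For MMP10 the 4 groups without TGF-β1 had means of 0.303 to 0.457 CPM, each range overlapping the next. For MMP2 these 4 groups also had overlapping neighbours, with means of 0.144 to 0.294 CPM, although hypoxia with BAY was called above normoxia with solvent. TIMP1 group means ran from 144 to 189 CPM in steps so small that every group overlapped its neighbour, whereas TIMP2 ran from 406 CPM (normoxia with BAY) to 658 CPM (TGF-β1) with overlap only between the TGF-β1 groups.

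To compare levels between genes, CPM were divided by the exon length of each gene in kb. With solvent in normoxia MMP7 was the most abundant member at 131 ± 11.5 CPM per kb (SD, n = 5), followed by TIMP1 (93.6 ± 6.26), TIMP2 (87.2 ± 0.498) and MMP14 (59.5 ± 2.13), while MMP1 stood at 2.05 ± 0.395 and MMP13 at 0.657 ± 0.0802. With TGF-β1 MMP1 became the most abundant at 339.8 ± 35.9 CPM per kb (SD, n = 5), ahead of MMP7 (222 ± 14.1), TIMP1 (118 ± 13.3), TIMP2 (117 ± 3.21), MMP14 (110.2 ± 10.3), MMP13 (99.8 ± 29.9) and MMP10 (26.3 ± 4.98). With BAY added MMP1 reached 651 ± 52.9 CPM per kb and MMP10 reached 108 ± 7.86, close to TIMP2 at 115 ± 5.97 (SD, n = 5 each).

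The transcripts of MMP1 and MMP13 were then set against those of TIMP1 and TIMP2. The summed level per length of MMP1 and MMP13 was 1.49% ± 0.214 of that of TIMP1 and TIMP2 with solvent in normoxia (SD, n = 5) and 1.77% ± 0.106 with BAY (SD, n = 3). In hypoxia it was 2.48% ± 0.369 (SD, n = 3), and 3.29% ± 0.510 (SD, n = 3) once BAY was present. With TGF-β1 it reached 188% ± 11.8, and with both agents 297% ± 18.4 (SD, n = 5 each), where the lowest library, at 269%, lay above the highest with TGF-β1 alone, at 201%. The fall of MMP13 with BAY thus did not lower the sum, in which MMP1 had the larger part. The sum leaves out MMP14, at 59.5 CPM per kb with solvent in normoxia and 110.2 with TGF-β1, and MMP7, at 131 and 222. These percentages therefore hold for MMP1 and MMP13 only and are not a ratio of all the enzymes to their inhibitors. TIMP1 overlaps SYN1 on the opposite strand, which was measured at 1.04 CPM with solvent and 3.38 CPM with TGF-β1, and TIMP2 overlaps CEP295NL on the same strand, at 0.541 to 0.725 CPM in the group means, both far below the TIMP levels.

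**Figure D4:**
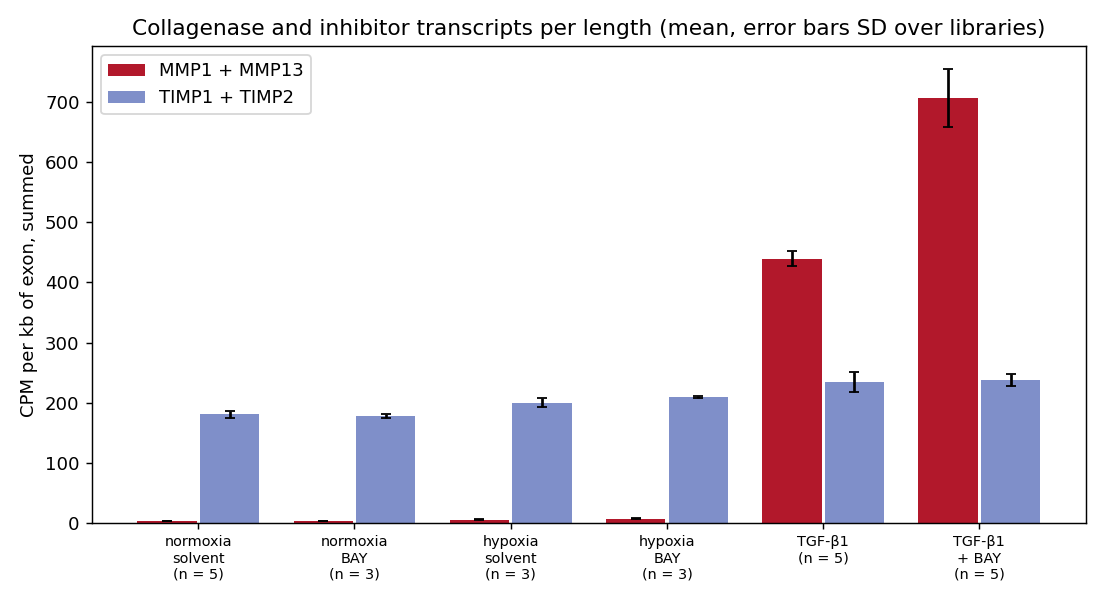
Summed transcript level per kb of exon of the collagenases MMP1 and MMP13 (red) and of the inhibitors TIMP1 and TIMP2 (blue) in each group, mean with SD over libraries. The inhibitors lie between 178 and 238 CPM per kb in the group means, while the collagenases go from 2.70 with solvent in normoxia to 439.6 with TGF-β1 and 708 with TGF-β1 and BAY.

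Other genes of the same system were read from lists chosen with results of these data known. Of 16 other MMP genes 10 could be tested with TGF-β1, of which 5 were called higher and 3 lower, where 29.5% of all genes were called higher and 32.5% lower. Of these, MMP20 and MMP25 among the higher and MMP8 among the lower passed the filter only through groups where they are high. MMP9, the other gelatinase, rose from 1.40 to 14.0 CPM (log2 3.32, edgeR adjusted p = 7.02e-11) and MMP17 rose from 0.295 to 1.21 CPM (log2 2.02, edgeR adjusted p = 8.03e-08). With BAY on TGF-β1, 1 of the 10 rose and 3 fell, where 13.9% and 15.6% of all genes did, and MMP9 fell back to 4.76 CPM, by 1.56 on the log2 scale (edgeR adjusted p = 3.75e-06). MMP15, a membrane-bound relative of MMP14, fell with BAY in normoxia by 0.67, in hypoxia by 0.68 and with TGF-β1 by 0.63 on the log2 scale (edgeR adjusted p = 2.21e-08, 8.54e-08 and 3.07e-05). In hypoxia 4 of 8 tested rose and 1 fell, the latter MMP11, from 7.72 to 3.67 CPM, and with 29.2% of all genes higher and 31.6% lower the share called was close to that of all genes. RECK, a membrane-anchored inhibitor, fell with TGF-β1 from 7.25 to 6.55 CPM (log2 -0.15, edgeR adjusted p = 0.00915).

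The proteases and inhibitors that control activation of the precursors also changed. Of 11 genes listed as activators, inducer or parts of the plasminogen system, 8 could be tested, and with TGF-β1 7 rose and 1 fell, where 29.5% of all genes rose and 32.5% fell (median log2 fold change 1.17, that of all genes -0.04). HTRA1, a secreted serine protease, rose from 37.8 to 472 CPM (log2 3.64, edgeR adjusted p = 4.62e-15). PLAU, urokinase, was the one that fell (log2 -1.96, edgeR adjusted p = 7.68e-07). With BAY in normoxia 6 of the 8 fell and 0 rose, where 23.3% of all genes fell and 20.6% rose, among them PLAU, from 571 to 193 CPM (log2 -1.55, edgeR adjusted p = 9.47e-13). With BAY on TGF-β1 1 of the 8 rose and 1 fell, where 13.9% and 15.6% of all genes did, the latter PLAU, from 147 to 75.7 CPM (log2 -0.96, edgeR adjusted p = 0.00270).

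Of 15 AP-1, ETS and RUNX factors, families known to act on MMP promoters, all could be tested. With TGF-β1 10 rose and 3 fell, where 29.5% of all genes rose and 32.5% fell, with ELK3 going from 24.3 to 147 CPM (log2 2.59, edgeR adjusted p = 7.98e-15) and RUNX2 from 6.58 to 39.3 CPM (log2 2.57, edgeR adjusted p = 7.26e-11). BAY in normoxia raised 3 and lowered 6, where 20.6% of all genes rose and 23.3% fell. The FOS relatives went apart there, FOSL2 rising from 107 to 446 CPM (log2 2.08, edgeR adjusted p = 5.31e-12) and FOSL1 falling from 16.5 to 2.87 CPM (log2 -2.50, edgeR adjusted p = 5.20e-08). They did the same with BAY in hypoxia, FOSL2 from 370 to 948 CPM (log2 1.35, edgeR adjusted p = 3.54e-09) and FOSL1 from 30.6 to 14.4 CPM (log2 -1.09, edgeR adjusted p = 0.000113), where 4 factors rose and 3 fell beside 16.5% and 21.4% of all genes. With BAY on TGF-β1 6 rose and 2 fell, where 13.9% and 15.6% of all genes did, FOSB going from 20.1 to 81.4 CPM (log2 2.01, edgeR adjusted p = 8.54e-05) and ETS1 from 107 to 55.6 CPM (log2 -0.94, edgeR adjusted p = 8.41e-12).

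Of 15 genes of matrix proteins that these enzymes cut, 12 could be tested, and with TGF-β1 10 rose and 2 fell, where 29.5% of all genes rose and 32.5% fell (median log2 fold change 1.68, that of all genes -0.04). TNC, the adhesion-modulating protein tenascin-C, rose from 100.2 to 827 CPM (log2 3.04, edgeR adjusted p = 2.66e-15) and COL5A1 from 1.57 to 11.9 CPM (log2 2.93, edgeR adjusted p = 7.77e-12). With BAY on TGF-β1 1 of the 12 rose and 5 fell, where 13.9% and 15.6% of all genes did, among them TNC, from 827 to 516 CPM (log2 -0.68, edgeR adjusted p = 4.13e-06). In normoxia without TGF-β1 BAY lowered 6 of the 12 and raised 2, where 23.3% of all genes fell and 20.6% rose, with TNC falling from 100.2 to 23.2 CPM (log2 -2.09, edgeR adjusted p = 2.31e-09).

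The genes most like each member were named by Pearson's r over log2(CPM + 0.5) of the 24 libraries, among 11159 genes with a mean of at least 5 CPM. Other members were candidates only where they reached that mean. These values describe shared patterns over 6 groups, where the step with TGF-β1 dominates, and libraries of a group share their treatment. MMP1 was most like ADA (r = 0.996), WHRN and CERCAM, and among the genes most like MMP10 were DLX2 (r = 0.995) and DRAXIN (r = 0.992). MMP2 was most like MMP1 (r = 0.993), with MMP10 also among its nearest (r = 0.993), and MMP13 was most like BMF (r = 0.995), MAP3K4 and COL1A1. BMF went from 7.68 CPM with solvent in normoxia to 4.75 with BAY, 13.3 in hypoxia, 8.84 in hypoxia with BAY, 209.6 with TGF-β1 and 185 with both. MMP7 was most like AKT1S1 (r = 0.984), MYO10 and HSPB1, MMP14 was most like FN1 (r = 0.983), NBL1 and TPM4, and TIMP2 was most like BHLHE41 (r = 0.985), GRIN2D and NIBAN2. TIMP1, which varied least, had the weakest match, GRK5 (r = 0.938), with SPRY2 and MAGED2 next.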

How the data were processed

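The values are estimated counts for each Ensembl gene in 24 libraries, deposited by the authors and made with Salmon on GRCh38 (hg38) per the submitters' processing notes, which also name DESeq2. No source used here gives versions, annotation, use of strand or how transcripts were summed. Of the values above 0, 48.6% were not whole, and all were rounded. In edgeR 4.0.16 (R 4.3.3), genes were kept by filterByExpr, libraries scaled by TMM, and 9 comparisons tested, 2-sided, by quasi-likelihood with robust dispersions in 2 fits: 14 libraries without TGF-β1 (21316 genes) and 18 normoxic libraries (21639 genes). Both fits used the 8 normoxic libraries that had no TGF-β1. Benjamini-Hochberg adjustment ran over every gene of a fit, and a gene was called, and described as rising or falling, at an adjusted p below 0.05. SEs are approximate, computed as the absolute log2 fold change over the root of F. The fits were tested on simulated counts. MMP3 and TIMP3 did not pass the filter in the first fit and TIMP3 not in the second. Counting intervals and limits cover counting error only, and at this depth the spread between replicates limits most other values.

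The members and lists were chosen with earlier results of these data known. Every member tested in a comparison is named there. From other lists the 2 called genes with the largest change and at least 1 CPM in either group are named. Besides these, MMP8, MMP20, MMP12, MMP25, MMP27 and RECK, the fall of PLAU with TGF-β1 and the 3 falls of MMP15 are given, as cluster neighbours or after their values were seen. Some genes that this rule names are not reported here. Exon lengths and positions come from GENCODE 29, which may not be the authors' annotation. Alternatives were RLE scaling, total counts, DESeq2 1.42.0, no filter, a replicate block, all libraries in 1 fit, leaving out each library and, added after the data were seen, the library subsets. In the fits of 1 subset the groups of 3 libraries, which were assigned to no subset, were kept whole. Same-numbered libraries had correlated deviations from their group means, with r above 0.1 in every pair, between TGF-β1 with and without BAY (0.332 to 0.624) and between hypoxia with and without BAY (0.143 to 0.232). In each other comparison at least 1 pair fell below that, as between solvent and TGF-β1 replicates 5 (-0.335). The numbers were therefore tried as a pairing in a fit of 2 groups alone only for the former. The replicate block over all groups of a fit also joins same-numbered libraries without such a correlation, so its results do not rest on a known pairing. Libraries of different numbers were not compared, and same-numbered libraries of the 2 TGF-β1 groups fall in the same subset. The correlations therefore cannot show that the numbers pair the samples. The labels do not say what a number marks. All 39 pairs of replicates differed beyond sampling noise.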

Additional observations from a re-analysis of the deposited data

Results flagged for a closer look

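In solvent controls 1 library lay apart from the other 4 for TIMP2, whose highest library reached 496 CPM in a group spread over only a few CPM, and for MMP3, where the highest library, at 0.0097 CPM, held the single count of the group. Chance sets a library apart as for TIMP2 in about 1 of 20 groups, while a single count in a group always sets its library apart.

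The BAY effect differed between settings by a test of the difference itself for 4 members. Between TGF-β1 and no TGF-β1 the log2 difference was 2.21 for MMP10, 0.71 for MMP7 and 0.25 for TIMP2. Between hypoxia and normoxia it was 0.63 for MMP7, 0.44 for MMP14 and 0.19 for TIMP2. The edgeR adjusted p ranged from 7.60e-05 (MMP7, oxygen) to 0.00774 (TIMP2, oxygen). Both kinds of difference use the same normoxic libraries with BAY and with solvent.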

How the results depend on the processing

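The calls of MMP7 and MMP13 with BAY in each setting, and those of MMP1, MMP10, MMP13, MMP2, MMP14, TIMP1 and TIMP2 with TGF-β1, held under every alternative run. With scaling by total counts alone the median log2 fold change of all genes went from -0.04 to -0.17 with TGF-β1 and from -0.03 to -0.15 for hypoxia with BAY against normoxic solvent. The calls higher and lower went from 6380 and 7042 to 4689 and 9078 with TGF-β1, from 6622 and 6987 to 4683 and 9226 with TGF-β1 and BAY, from 2956 and 1531 to 2147 and 2275 for TGF-β1 by BAY, from 3524 and 4563 to 2743 and 5560 with BAY in hypoxia and from 1882 and 1689 to 1167 and 2930 for oxygen by BAY. Under it these log2 values changed sign: TIMP1 in hypoxia (-0.019), MMP13 (-0.0082) and MMP14 (-0.11) in hypoxia with BAY, MMP10 for oxygen by BAY (-0.018), and MMP2 (-0.042) and MMP14 (-0.0024) for TGF-β1 by BAY. With subset 1 only, MMP2 (0.11), MMP10 (-0.014) and TIMP1 (0.062) changed sign for oxygen by BAY and TIMP1 with BAY on TGF-β1 (-0.067). Genes called rose to 5821 from 3571 for oxygen by BAY and to 7100 from 4487 for TGF-β1 by BAY, where 6 members were called in place of 3. With subset 2 only, MMP1 (-0.016) and MMP13 (-0.063) changed sign for oxygen by BAY, and MMP2 (-0.48) and MMP13 (-0.057) for TGF-β1 by BAY. All sign changes but that of MMP14 with total counts were of values not called in either fit; the cause was not tested.

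Leaving out 1 library gave sign changes only in values not called: MMP10 with BAY in normoxia (-0.57 to 0.016) and in hypoxia (-0.29 to 0.18) and for oxygen by BAY (-0.12 to 0.48), TIMP1 in hypoxia (-0.0094 to 0.10) and for oxygen by BAY (-0.066 to 0.039), MMP2 for oxygen by BAY (-0.61 to 0.036) and for TGF-β1 by BAY (-0.16 to 0.17), MMP14 in hypoxia with BAY (-0.013 to 0.063) and TIMP2 with BAY on TGF-β1 (-0.037 to 0.0096). With a replicate block over all groups of a fit MMP1 was called for TGF-β1 by BAY (log2 0.49, edgeR adjusted p = 0.0335), no other member's call changed, and genes called in that comparison went from 4487 to 5922. In the comparisons where the numbers were tried as a pairing, a fit of only the 2 groups with the replicate block called MMP14 lower with BAY on TGF-β1 (log2 -0.09, edgeR adjusted p = 0.00333) and changed no other member's call. Depth limits MMP3 and TIMP3, and precision below 1 CPM limits MMP2 and, without TGF-β1, MMP10.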
